A study of Mus musculus with 12 samples.

Results

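The activin, TGF-beta and BMP genes of the sciatic dorsal root ganglia (DRG) were followed 24 h after a nerve lesion in mice kept in plain or in enriched cages. They are 10 genes taken by name from the 44345 gene names of a count table. They comprise the ligand genes Inhba, Inhbb, Tgfb1, Tgfb2 and Gdf15, the receptor genes Acvr1c, Acvr1b and Tgfbr2, and Smad1 and Smad7, whose proteins act inside the cell. The set was chosen by pathway with earlier results of these data known, as were the pathway lists used below. Shares of members or list genes called are therefore a description, and were not tested against those of all genes. Acvr1c within the set was selected on its measured rise after axotomy in these same samples. Its values are given as a description with no test, and the counts of members that follow are of the other 9.

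Ligands of the TGF-beta superfamily are dimers that bring together type II and type I receptor kinases at the cell surface. The type I receptor then phosphorylates receptor SMADs: SMAD2 and SMAD3 on the activin and TGF-beta branch, and SMAD1, SMAD5 and SMAD9 on the BMP branch. These join SMAD4, enter the nucleus and act on transcription, while SMAD6 and SMAD7 inhibit signalling. In DRG neurons SMAD1 is known as a factor linked to axon growth, and activin as a signal that can raise neuropeptide expression.

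RNA was sequenced from whole L4 to L6 DRG of C57BL/6 mice of 5 to 8 weeks. The mice spent 10 days in standard housing (SH) or in environmental enrichment (EE), which was a larger cage with more animals, a running wheel, a shelter and objects. They then had sham surgery, in which the sciatic nerve was exposed and left whole, or sciatic nerve axotomy (SNA), in which it was cut through. Each of the 4 groups (SH Sham and SH SNA, EE Sham and EE + SNA) had 3 samples of 2 pooled mice, or 6 mice in all. The study describes the EE Sham samples as an earlier dataset, and the labels give no date. Batch and enrichment therefore cannot be told apart in EE Sham against SH Sham. In EE + SNA against EE Sham, where both groups were enriched, batch and axotomy cannot be told apart. This limits every change after axotomy in EE, and the interaction of housing and surgery too. Because the ganglion was taken whole, fewer cells of a type and less RNA per cell cannot be told apart either.

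Between 11343579 and 22871460 reads per sample fell on genes, and 1 read was worth 0.0435 to 0.0902 CPM (read counts scaled to a common library size, here with the TMM factors of edgeR). The injury label was checked with Atf3, a transcription factor gene that axotomy induces in DRG neurons. It stood at 110, 138 and 110 CPM in SH Sham and at 549, 502 and 499 CPM in SH SNA, and at 136, 136 and 168 CPM in EE Sham and 480, 454 and 516 CPM in EE + SNA. All 9 sensory neuron markers were detected in numbers that passed the filter, with a summed level of 8651 to 10108 CPM. Marker lists of cell types were summed in the same way. The 9 macrophage genes held 66.1 to 79.4 CPM in the 6 sham samples and 83.6 to 117.5 CPM in the 6 axotomy samples, and 1 of them was called higher in SH and 0 in EE. The 3 red blood cell genes were all called higher in SH, where the sums ran from 153 to 318 CPM in SH Sham and from 343 to 882 CPM in SH SNA. None was called in EE, where the sums overlapped (374, 537 and 202 CPM in EE Sham, and 378, 326 and 985 CPM in EE + SNA). Of 5 satellite glia genes 2 were called higher in SH and 1 in EE, and of the 9 sensory neuron genes 2 were called lower in SH and 1 in EE. The 7 Schwann cell genes, none of them called, summed to 6560 to 9081 CPM in EE Sham and 9476 to 12281 CPM in EE + SNA, which did not overlap. In SH they did (7345 to 8914 and 7838 to 11415 CPM). Endothelial (91.0 to 110.1 and 112.8 to 128.9 CPM), fibroblast (186.3 to 245.06 and 245.09 to 320.2 CPM) and lymphocyte sums (4.39 to 5.46 and 5.48 to 9.35 CPM) were likewise apart in EE and overlapped in SH. None of their genes was called. The part of these cell types in the results below was not tested.

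The bases just upstream of the start of Acvr1c, the member with the largest rise, and of the 3 members called after axotomy show what lies before the genes the results turn on. They are RefSeq sequences of GRCm38.p6, written in the direction of the gene and cut so that no base lies inside the gene by RefSeq or by GENCODE. Capitals mark a SMAD box core, CAGAC on either strand.
Acvr1c, chr2:58357896-58358008, minus strand: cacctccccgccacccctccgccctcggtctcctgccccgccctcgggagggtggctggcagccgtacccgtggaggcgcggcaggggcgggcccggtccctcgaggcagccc
Inhba, chr13:16011601-16011850, plus strand: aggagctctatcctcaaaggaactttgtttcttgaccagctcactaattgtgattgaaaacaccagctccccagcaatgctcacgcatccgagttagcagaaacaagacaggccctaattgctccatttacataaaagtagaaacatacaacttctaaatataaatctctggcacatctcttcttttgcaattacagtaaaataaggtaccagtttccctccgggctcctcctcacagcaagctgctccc
Tgfbr2, chr9:116175364-116175613, minus strand: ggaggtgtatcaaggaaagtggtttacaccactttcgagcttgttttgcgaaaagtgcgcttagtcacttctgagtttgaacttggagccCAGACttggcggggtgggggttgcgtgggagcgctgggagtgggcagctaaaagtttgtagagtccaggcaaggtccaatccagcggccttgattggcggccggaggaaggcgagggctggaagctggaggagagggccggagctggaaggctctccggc
Smad1, chr8:79399519-79399678, minus strand: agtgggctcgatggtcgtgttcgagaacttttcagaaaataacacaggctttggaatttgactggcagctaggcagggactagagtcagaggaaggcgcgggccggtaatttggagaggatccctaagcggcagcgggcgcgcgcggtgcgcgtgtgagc

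The window of Acvr1c held 80.5% G and C and that of Inhba 43.2%, with 58.4% for Tgfbr2 and 58.1% for Smad1. The 250 bases upstream of 9 of the 10 members were in the promoter table, and 4 motifs were searched in them on both strands. The SMAD box core CAGAC was found in Tgfb2 at 2 places and in Tgfbr2 and Gdf15 at 1 place each, and it occurs in 42.2% of 32851 windows of that length. The AP-1 motif TGANTCA (6.75% of windows), the ATF/CREB motif TGACGTCA (1.55%) and the GC-rich BMP element GGCGCC (9.59%) were in none of the 9. These matches describe letters only.

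After axotomy under standard housing, 3 of the 8 members tested rose: Smad1 1.54-fold, Tgfbr2 1.31-fold and the activin subunit gene Inhba 3.53-fold. None fell. Of these, Inhba met the filter on low counts through the axotomy samples, in which it was high, which limits its test. Under enrichment Smad1 (1.58-fold) and Tgfbr2 (1.27-fold) rose and Inhba did not pass the test (1.49-fold, adjusted P-value 0.401). The share of all 16238 genes called was 11.2% in SH SNA against SH Sham, with 6.06% higher and 5.17% lower, and 4.83% in EE + SNA against EE Sham, with 2.51% higher and 2.33% lower. Calls were made by edgeR's quasi-likelihood test at a Benjamini-Hochberg adjusted P-value of 0.05 over all genes. Between the groups of samples, 5 of 8 members did not overlap in each of these comparisons, against 29.4% and 25.8% of all genes. Exact permutation of 3 samples against 3 reaches a two-sided P-value of 0.1 at the least, so these P-values rest on the spread estimated across genes.

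**Figure D1:**
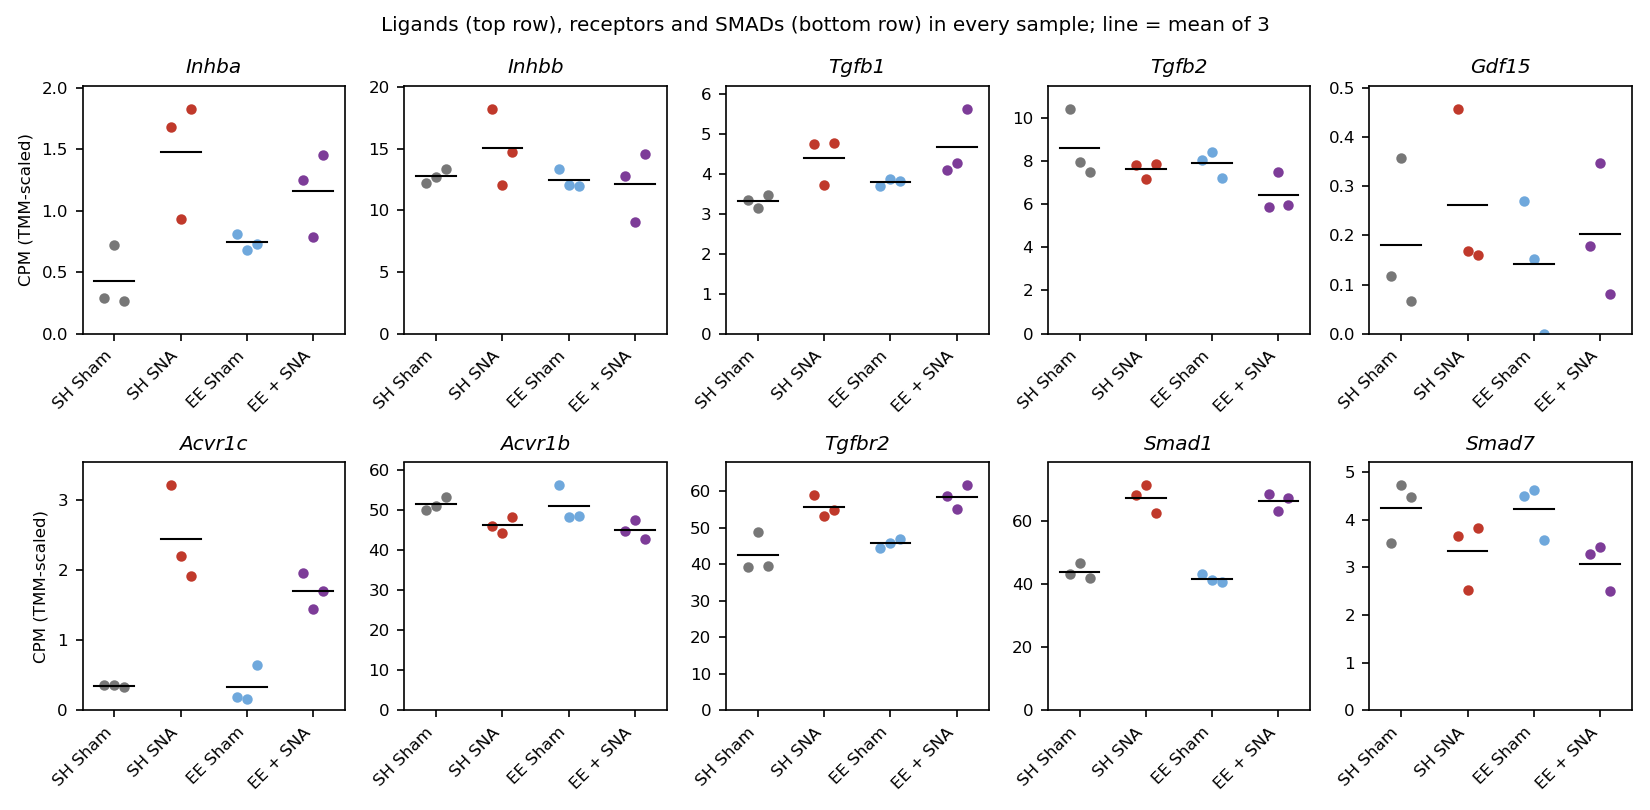
Level of each of the 10 genes in every sample, in CPM on a linear axis from 0, with 1 point per sample and a line at the mean of 3, coloured by group. Smad1, Tgfbr2 and Acvr1c are higher in all 6 axotomy samples than in all 6 sham samples, and Gdf15 stays below 0.5 CPM.

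Of the ligand genes, Inhba encodes the subunit that makes activin A. It stood at 0.293, 0.717 and 0.267 CPM in SH Sham, which were 5, 10 and 4 reads, and at 1.68, 0.929 and 1.83 CPM in SH SNA, which were 22, 11 and 23 reads. In EE Sham it stood at 0.812, 0.683 and 0.731 CPM, 9 reads in each sample, and in EE + SNA at 1.25, 0.783 and 1.45 CPM, or 14, 18 and 18 reads. Every axotomy sample held at least 11 reads and no sham sample more than 10. Inhba thus met the filter on low counts through its axotomy samples, and a filter of 10 counts in every sample removed it. All 3 SH SNA samples lay above all 3 SH Sham samples, whereas EE + SNA and EE Sham overlapped. The change was 1.82 ± 0.43 (log2 fold change ± SE, adjusted P-value 0.0162 by edgeR) in SH and 0.57 ± 0.35 in EE. The difference between these changes, tested as the interaction of housing and surgery in edgeR on all 12 samples, was −1.24 ± 0.58 on the log2 scale, with an unadjusted P-value of 0.0483 and an adjusted P-value of 0.99995. Inhba in SH had a result in 13 alternatives, and its call held in 8 of them. The call in SH was lost when the replicate numbers were made a block (1.81, adjusted P-value 0.0534) and without replicate 1 of SH Sham (1.59, 0.0707), replicate 3 of SH Sham (1.59, 0.0649), replicate 1 of SH SNA (1.72, 0.0599) or replicate 3 of SH SNA (1.64, 0.0593).

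Inhbb, which encodes the subunit of activin B, was the more abundant activin gene. Its level was 12.2, 12.7 and 13.4 CPM in SH Sham, 18.3, 12.1 and 14.7 CPM in SH SNA, 13.4, 12.1 and 11.9 CPM in EE Sham and 12.8, 9.05 and 14.6 CPM in EE + SNA. Axotomy samples lay on both sides of the sham samples, and neither change passed the test (log2 fold change 0.24 ± 0.14, adjusted P-value 0.298 in SH, and −0.07 ± 0.16, adjusted P-value 0.853 in EE, by edgeR). Per length, in FPKM (fragments scaled by gene length and library total), Inhbb stood 16.95 ± 7.80 times (mean ± SD, n = 3) above Inhba in SH Sham and 4.95 ± 1.16 times in SH SNA. The ratio was 7.82 ± 0.344 in EE Sham and 4.95 ± 0.376 in EE + SNA, so that it was lower after axotomy in each housing, with no test made. It rests on few reads of Inhba, 19 in all in SH Sham and 27 in EE Sham. In SH Sham it ran from 8.24 to 23.3 between samples.

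Tgfb1, the TGF-beta gene best known from inflammation and scarring, had 3.34, 3.16 and 3.48 CPM in SH Sham and 4.74, 3.72 and 4.78 CPM in SH SNA. It had 3.70, 3.87 and 3.82 CPM in EE Sham and 4.09, 4.26 and 5.64 CPM in EE + SNA. All axotomy samples lay above the sham samples of their housing, yet the changes of 0.41 ± 0.17 and 0.28 ± 0.18 (log2 fold change ± SE) did not pass the test (adjusted P-value 0.147 and 0.418, edgeR). Tgfb2, which encodes another TGF-beta isoform, ranged from 7.49 to 10.4 CPM in SH Sham, 7.18 to 7.88 CPM in SH SNA, 7.23 to 8.42 CPM in EE Sham and 5.87 to 7.48 CPM in EE + SNA. Its groups overlapped in both housings (−0.18 ± 0.14 and −0.28 ± 0.15, adjusted P-value 0.476 and 0.314, edgeR).

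Gdf15, a stress-induced cytokine gene that signals through GFRAL rather than through SMADs, was close to the limit of detection. It had 2, 5 and 1 reads in SH Sham, 6, 2 and 2 in SH SNA, 3, 2 and 0 in EE Sham and 2, 8 and 1 in EE + SNA. The group totals of 8, 10, 5 and 11 reads are too few for a comparison, and it was the only member of the 10 that failed the filter on low counts. A change of Gdf15 was not detectable at this depth.

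Among the receptor genes Acvr1c encodes ALK7, a type I receptor for activin B, nodal and GDF3. It had 0.352, 0.359 and 0.334 CPM in SH Sham (6, 5 and 5 reads) and 3.21, 2.197 and 1.91 CPM in SH SNA (42, 26 and 24 reads). It had 0.180, 0.152 and 0.650 CPM in EE Sham (2, 2 and 8 reads) and 1.96, 1.44 and 1.69 CPM in EE + SNA (22, 33 and 21 reads). Every axotomy sample stood above every sham sample. The fitted log2 difference was 2.78 ± 0.33 (SE) in SH and 2.30 ± 0.45 in EE, or 6.89-fold and 4.94-fold. Without replicate 3 of EE Sham, whose 8 reads exceed those of the other EE Sham samples, the EE difference was 3.26. In order of mean level, SH SNA (2.44 ± 0.684 CPM, SD) came before EE + SNA (1.70 ± 0.261 CPM), whose ranges overlap, then SH Sham (0.348 ± 0.0126 CPM) and EE Sham (0.327 ± 0.280 CPM), whose ranges overlap too.

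Per length, Acvr1c stayed the scarcest of the 7 type I receptor genes. It made up 0.0962% ± 0.00277 (SD, n = 3) of their summed FPKM in SH Sham, 0.618% ± 0.161 in SH SNA, 0.0869% ± 0.0741 in EE Sham and 0.420% ± 0.0686 in EE + SNA. Acvr1b, which encodes the other activin type I receptor ALK4, stood 314 ± 21.6 times above it in SH Sham and 42.3 ± 11.6 times in SH SNA (ratio of FPKM). The ratio was 499 ± 295 in EE Sham and 57.5 ± 11.4 in EE + SNA. The gene lies at chr2:58267453-58357895 on the minus strand (GRCm38, GENCODE), and 168 of its 9292 exon bases are shared with Gm13544 on the other strand. The strand setting of the counting is not given in the sources used here, so reads of those bases cannot be assigned to either gene. Summed markers of adipocytes, a cell type in which Acvr1c is abundant, were 7.80, 21.6 and 15.9 CPM in SH Sham and 24.3, 19.9 and 10.2 CPM in SH SNA, and 8.93, 33.2 and 12.6 CPM in EE Sham and 68.3, 18.6 and 44.97 CPM in EE + SNA. Within each axotomy group they had the same order as Acvr1c, and within each sham group they did not. The highest sum lay in EE + SNA, whereas the highest Acvr1c level, 3.21 CPM, lay in SH SNA. The groups overlapped in both housings and 0 of the 4 genes tested was called. Their part in the rise of Acvr1c was not tested.

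Acvr1b itself had 49.9, 50.9 and 53.3 CPM in SH Sham and 46.0, 44.3 and 48.2 CPM in SH SNA. It had 56.2, 48.3 and 48.5 CPM in EE Sham and 44.7, 47.6 and 42.7 CPM in EE + SNA. In both housings the axotomy samples lay below the sham samples, by −0.15 ± 0.064 and −0.18 ± 0.078 on the log2 scale, but neither difference passed the test (adjusted P-value 0.166 and 0.213, edgeR).

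Tgfbr2, the type II receptor gene for TGF-beta, had 39.2, 48.7 and 39.5 CPM in SH Sham and 59.0, 53.1 and 54.8 CPM in SH SNA. It had 44.5, 45.8 and 46.8 CPM in EE Sham and 58.6, 55.0 and 61.7 CPM in EE + SNA. The lowest axotomy sample of either housing stood above the highest sham sample. The log2 fold change was 0.39 ± 0.089 (adjusted P-value 0.0129) in SH and 0.34 ± 0.069 (adjusted P-value 0.0146) in EE by edgeR. The SH call was lost without replicate 1 of SH Sham (adjusted P-value 0.0619 by edgeR), replicate 3 of SH Sham (0.0579) or replicate 1 of SH SNA (0.0581), and the EE call without replicate 3 of EE Sham (0.0634) or replicate 1 of EE + SNA (0.0678), with changes of 0.33 to 0.36.

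**Figure D2:**
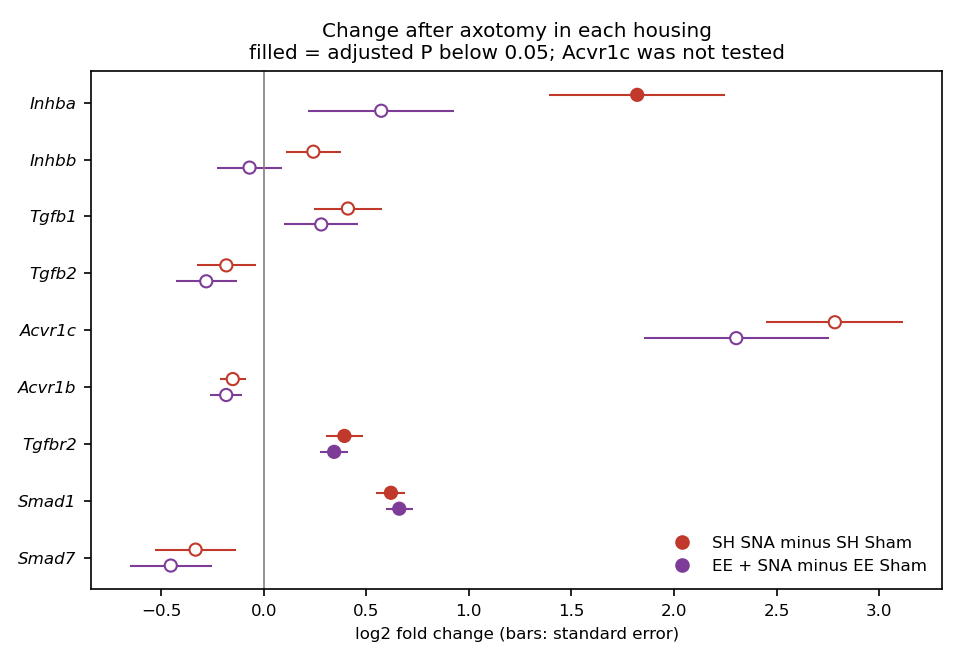
Log2 fold change after axotomy for the 9 members that passed the filter, in SH (red) and in EE (purple), with bars of 1 standard error; filled points have an adjusted P-value below 0.05 and Acvr1c, drawn open, was not tested. Smad1 and Tgfbr2 are filled in both housings, with nearly equal changes (0.62 and 0.66 for Smad1, 0.39 and 0.34 for Tgfbr2), and Inhba is filled in SH alone.

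Smad1, a receptor SMAD gene of the BMP branch, gave the clearest change among the members tested. It had 43.4, 46.6 and 42.1 CPM in SH Sham and 68.5, 71.6 and 62.6 CPM in SH SNA. It had 43.1, 41.4 and 40.8 CPM in EE Sham and 68.7, 63.4 and 67.3 CPM in EE + SNA. The gap between the lowest axotomy and the highest sham sample was wider than the spread within any group. The log2 fold change was 0.62 ± 0.071 (adjusted P-value 0.000152) in SH and 0.66 ± 0.066 (adjusted P-value 0.000257) in EE by edgeR, and both calls held under all alternatives run. Smad7, an inhibitory SMAD gene that TGF-beta induces as feedback, went the other way without passing the test. It had 3.52, 4.73 and 4.48 CPM in SH Sham, 3.67, 2.54 and 3.82 CPM in SH SNA, 4.51, 4.63 and 3.57 CPM in EE Sham and 3.29, 3.44 and 2.50 CPM in EE + SNA (−0.33 ± 0.20, adjusted P-value 0.335 in SH, and −0.45 ± 0.20, adjusted P-value 0.224 in EE, edgeR). The groups overlapped in SH and not in EE.

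The 3 receptor SMADs of the BMP branch moved in different directions. Smad9 fell in both housings, from 62.6, 58.0 and 61.8 CPM in SH Sham to 35.4, 36.9 and 34.5 CPM in SH SNA, and from 67.6, 54.3 and 55.3 CPM in EE Sham to 32.7, 34.1 and 32.8 CPM in EE + SNA. Its log2 fold change was −0.77 ± 0.065 (adjusted P-value 1.4e-05) and −0.83 ± 0.086 (adjusted P-value 0.000316, edgeR). Smad5 rose in SH (0.25 ± 0.072, adjusted P-value 0.0460), a call that most alternatives ended, and gave 0.21 ± 0.069 (adjusted P-value 0.102, edgeR) in EE. Per length, the FPKM of Smad1 was 0.670 ± 0.0623 (SD, n = 3) times that of Smad9 in SH Sham and 1.75 ± 0.0635 times in SH SNA, and 0.658 ± 0.0607 times in EE Sham and 1.85 ± 0.119 times in EE + SNA, so that the more abundant gene of the pair changed with the lesion in both housings. The SMADs of the activin and TGF-beta branch showed no call: Smad2 gave 0.10 ± 0.069 in SH and 0.04 ± 0.090 in EE, and Smad3 0.03 ± 0.15 and −0.09 ± 0.17 (log2 fold change ± SE). Smad4, the shared partner, rose in SH (0.34 ± 0.074, adjusted P-value 0.0115, edgeR) and gave 0.25 ± 0.089 in EE (0.136). Without replicate 1 of SH Sham or replicate 1 of SH SNA the SH call was lost (0.0578 and 0.0601). Of 14 genes of SMADs and their partners 3 were called higher and 1 lower in SH (28.6%, against 11.2% of all genes). In EE 1 was called higher and 1 lower (14.3%, against 4.83%).

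**Figure D3:**
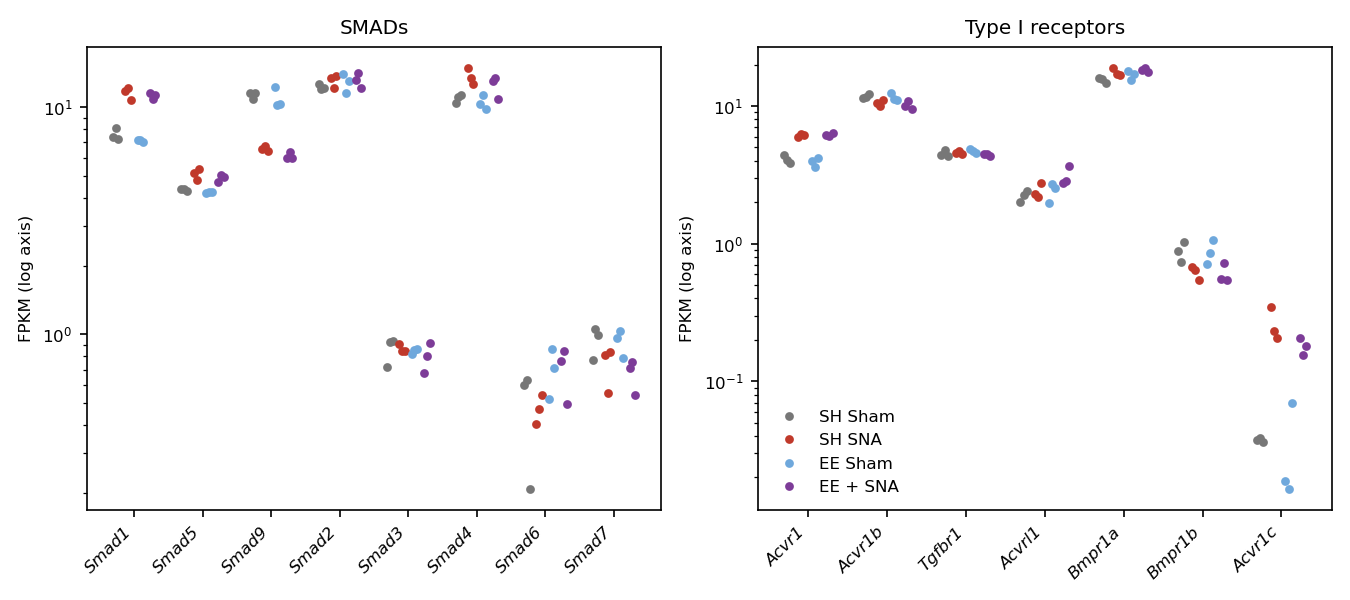
FPKM on a log axis of 8 SMAD genes (left) and of the 7 type I receptor genes (right), with 1 point per sample, coloured by group. Smad1 points move above and Smad9 points below their sham level after axotomy, and Acvr1c lies at the bottom of the receptors in all 4 groups.

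The genes of the pathway, members included, were counted in lists of ligands, receptors, SMADs with their partners, extracellular modulators and known targets. Without any of the members 73 genes were tested. Of these 6 were called higher and 5 lower in SH (15.1%), and 5 higher and 2 lower in EE (9.59%). Without Acvr1c alone the lists hold 101 genes, of which 81 were tested. In SH SNA against SH Sham 9 were called higher and 5 lower (17.3%, against 11.2% of all genes), and the median log2 fold change was 0.08 against 0.0047 for all genes. In EE + SNA against EE Sham 7 were called higher and 2 lower (11.1%, against 4.83%), with a median of 0.08 against 0.0039. These comparisons share no sample, and the sign of the change was the same in both for 60 of the 81 genes (74.1%), the same share as among all genes (74.1%). Among the 8 members it was 7 (87.5%).

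By role, 2 of 19 ligand genes were called higher in SH and 1 in EE (10.5% and 5.26%). These shares are near those of all genes (11.2% and 4.83%). Beside Inhba in SH, whose test is limited by the filter on low counts, the ligand called was Mstn. It encodes myostatin, a restraint on muscle growth. Mstn had 0.997, 1.15 and 1.20 CPM in SH Sham and 3.29, 1.69 and 2.07 CPM in SH SNA, and 0.632, 0.304 and 0.894 CPM in EE Sham and 2.22, 3.002 and 2.82 CPM in EE + SNA. Axotomy samples of each housing lay above its sham samples (1.08 ± 0.29, adjusted P-value 0.0311, and 2.15 ± 0.34, adjusted P-value 0.00385, edgeR), and the SH call was lost under DESeq2 (0.0571), with the replicate block (0.0588), by limma on log2(FPKM + 1) and log2(FPKM + 0.1) (0.0704 and 0.0539) and without replicate 1, 2 or 3 of SH Sham or replicate 1 of SH SNA (0.0701 to 0.163). Summed skeletal muscle markers were 1.94, 8.39 and 102 CPM in SH Sham, 24.2, 683 and 28.5 CPM in SH SNA, 7.40, 124 and 43.0 CPM in EE Sham and 85.8, 76.7 and 122 CPM in EE + SNA, with overlap in both housings, and their part in the rise of Mstn was not tested.

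Of 16 receptor genes 2 were called higher and 1 lower in SH and 2 higher in EE (18.8% and 12.5%, against 11.2% and 4.83% of all genes). Acvr1, which encodes the type I receptor ALK2 used by BMPs and activins, rose like Tgfbr2 in both housings. It had 21.5, 19.4 and 18.6 CPM in SH Sham, 28.7, 30.7 and 30.0 CPM in SH SNA, 19.7, 17.1 and 20.1 CPM in EE Sham and 30.3, 29.1 and 31.4 CPM in EE + SNA. All axotomy samples stood above all sham samples (0.59 ± 0.086, adjusted P-value 0.000923, and 0.67 ± 0.090, adjusted P-value 0.0014, edgeR). Bambi, a receptor-like decoy gene, was called lower in SH (−0.42 ± 0.12, adjusted P-value 0.0445), a call that most alternatives ended, and gave −0.31 ± 0.16 in EE (0.289). The type I receptor gene Tgfbr1 (0.04 ± 0.076 in SH and −0.09 ± 0.075 in EE, log2 fold change ± SE) and the type II receptor genes Acvr2a (−0.12 ± 0.097 and −0.06 ± 0.073) and Bmpr2 (−0.03 ± 0.070 and −0.36 ± 0.18) showed no call.

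Of 21 modulator genes 1 was called higher and 1 lower in SH, and 2 higher in EE. That is 9.52% in each housing, against 11.2% of all genes in SH and 4.83% in EE. Fst encodes follistatin, which binds activin and blocks it. It had 13.1, 13.99 and 13.8 CPM in SH Sham and 33.3, 25.3 and 26.9 CPM in SH SNA, and 13.2, 13.5 and 13.8 CPM in EE Sham and 28.7, 23.02 and 26.7 CPM in EE + SNA. It rose in both housings (1.07 ± 0.11, adjusted P-value 7.2e-05, and 0.94 ± 0.10, adjusted P-value 0.000527, edgeR). Set against the summed FPKM of both activin genes, Inhba and Inhbb, the FPKM of Fst was 1.82 ± 0.0413 times as high in SH Sham and 2.89 ± 0.342 times in SH SNA, and 1.76 ± 0.146 times in EE Sham and 3.34 ± 0.581 times in EE + SNA (mean ± SD, n = 3).

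Nog encodes noggin, which binds BMPs. It had 6.16, 5.02 and 5.35 CPM in SH Sham and 2.75, 2.87 and 1.51 CPM in SH SNA, and it fell there (−1.21 ± 0.22, adjusted P-value 0.00322, edgeR). In EE Sham it had 4.06, 4.02 and 4.79 CPM and in EE + SNA 2.85, 3.05 and 1.53 CPM, which did not overlap but missed the threshold (−0.77 ± 0.24, adjusted P-value 0.0965, edgeR). Dcn, the gene of the TGF-beta-binding proteoglycan decorin, was called higher in EE (0.36 ± 0.085, adjusted P-value 0.0340) and gave 0.23 ± 0.11 (0.201, edgeR) in SH. The EE call was lost with all 12 samples in one fit (0.0502), by limma on either FPKM scale (0.0946 and 0.0943), and without replicate 1 or 3 of EE Sham or replicate 1 or 3 of EE + SNA (0.0885 to 0.126). Summed fibroblast markers were 186.3 to 245.06 CPM in EE Sham and 245.09 to 320.2 CPM in EE + SNA, and their part in the rise of Dcn was not tested.

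Of 8 known targets of TGF-beta and activin 2 were called in SH and 1 in EE, in either direction. These are 25% and 12.5%, against 11.2% and 4.83% of all genes. Since 1 called gene is not reported here, the gene that follows does not give the direction of the list. Ldlrad4, a membrane protein gene that restrains SMAD phosphorylation, was called lower in SH (−0.48 ± 0.13, adjusted P-value 0.0299) with −0.43 ± 0.17 in EE (0.180, edgeR). This call was lost under DESeq2, with all 12 samples in one fit and without any sample other than replicate 2 of SH Sham, and 2798 of its 5371 exon bases are shared with Fam210a on the other strand.

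Of 8 known BMP targets none was called higher, 2 were called lower in SH and 1 in EE. These are 25% and 12.5%, against 11.2% and 4.83% of all genes called in either direction. Besides Bambi, which stands on the receptor list too, Id4 fell in SH (−0.47 ± 0.099, adjusted P-value 0.00851, edgeR), with −0.34 ± 0.13 (0.172) in EE. Id1, a helix-loop-helix gene that BMP signalling induces, had 10.0, 9.04 and 12.03 CPM in SH Sham and 12.2, 10.3 and 10.1 CPM in SH SNA, which overlapped (0.07 ± 0.13, adjusted P-value 0.785, edgeR). It was at 14.5, 17.8 and 14.3 CPM in EE Sham and at 12.6, 10.6 and 10.2 CPM in EE + SNA, where it was called lower after axotomy (−0.50 ± 0.13, adjusted P-value 0.0481, edgeR). That call was lost with library-size scaling (adjusted P-value 0.0507, edgeR), the replicate block (0.0585), limma on either FPKM scale (0.0779 and 0.0751), and when any of the 6 samples was left out (0.0577 to 0.126).

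**Figure D4:**
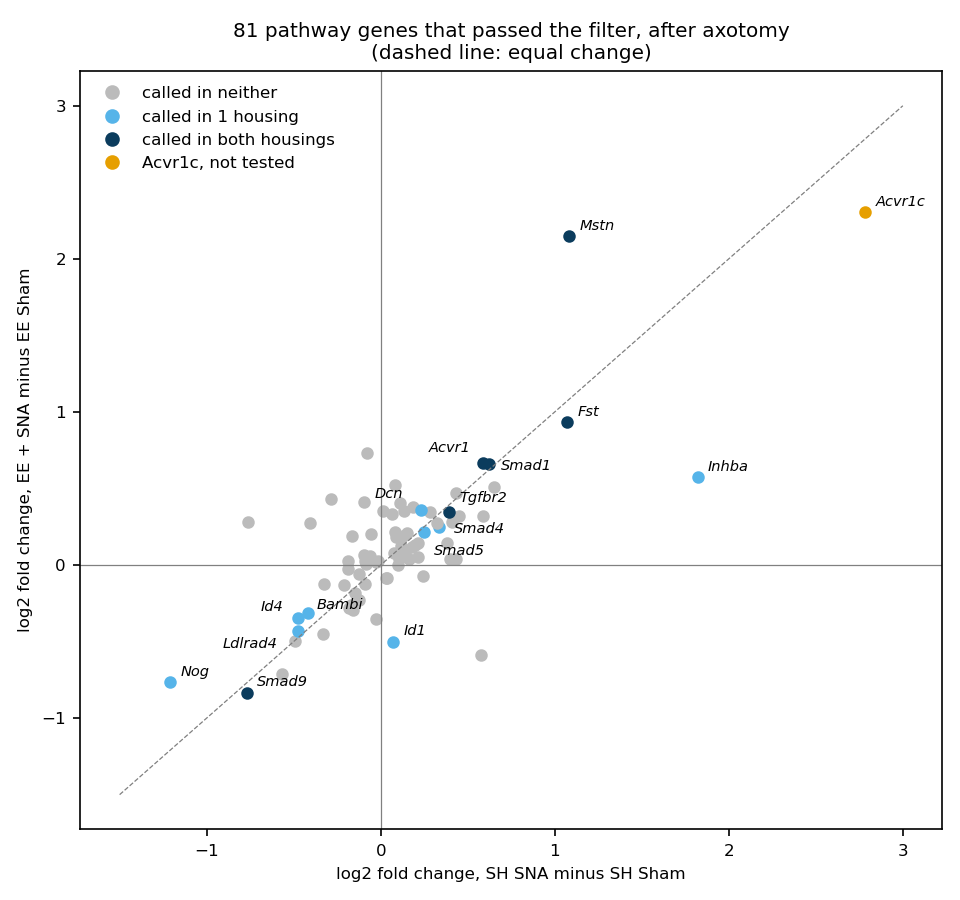
Log2 fold change of SH SNA against SH Sham (horizontal) and of EE + SNA against EE Sham (vertical) for 81 pathway genes, with 1 point per gene and the dashed line at equal change. These are not quite the 81 genes tested in the text: Acvr1c is drawn, and 1 called gene not reported here is left out. Colours give in how many housings a gene was called, with a separate colour for Acvr1c, which was not tested. Fst, Acvr1, Smad1, Tgfbr2, Mstn and Smad9 are called in both, and Inhba lies below the line and Mstn above it.

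Housing alone moved none of the members past the test. In EE Sham against SH Sham the 8 members tested had log2 fold changes from −0.13 (Tgfb2) to 0.82 (Inhba, 0.82 ± 0.47), and no member and no pathway gene was called, where 0.00616% of all genes, or 1 gene, was. At an unadjusted P-value below 0.05 there were 0 of the 8 members, 7 of the 81 pathway genes and 2.97% of all genes. Of the members Tgfb1 alone did not overlap between the groups (7.61% of all genes). Smad1 gave −0.08 ± 0.073, Tgfbr2 0.11 ± 0.089 and Acvr1c −0.08 ± 0.62 (log2 fold change ± SE). Without replicate 3 of EE Sham the value for Acvr1c was −1.04, and it ran from −1.04 to 0.28 as each sample was left out. The largest evidence was for Id1, whose EE Sham samples all lay above those of SH Sham (0.59 ± 0.13, unadjusted P-value 0.000568, adjusted P-value 0.9999, edgeR). With the replicate numbers as a block, Id1 was called (0.58, adjusted P-value 0.0141, edgeR). Same-numbered samples had correlations of 0.125 to 0.333 here, but differently numbered ones reached 0.197, so the pairing behind this call is not established. Mstn (−0.87 ± 0.39, unadjusted P-value 0.0409) and Nog (−0.36 ± 0.16, 0.0408) were lower in all 3 EE Sham samples and were not called (edgeR). These 3 genes enter the axotomy comparison in EE through the same EE Sham samples.

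Among lesioned mice the housings could not be told apart for these genes. In EE + SNA against SH SNA the log2 fold changes of the 8 members tested ran from −0.42 (Inhba, −0.42 ± 0.35) to 0.07 (Tgfb1), all 8 overlapped between the groups (10.4% of all genes did not), and none was called, as for all genes (0 called by edgeR, 4.1% at an unadjusted P-value below 0.05, and 2 genes called by DESeq2). Smad1 gave −0.03 ± 0.067, Tgfbr2 0.07 ± 0.069 and Acvr1c −0.55 ± 0.26 (log2 fold change ± SE). Of the 81 pathway genes 0 were called and 4 had an unadjusted P-value below 0.05. One of them was Ctgf, a matricellular gene and TGF-beta target (0.69 ± 0.17, unadjusted P-value 0.00181, adjusted P-value 0.989, edgeR).

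Mice with both enrichment and lesion were compared with SH Sham mice, which are the controls of the SH comparison too. There Smad1 (0.59 ± 0.067, adjusted P-value 0.000157) and Tgfbr2 (0.46 ± 0.087, adjusted P-value 0.00499, edgeR) rose, 2 of 8 members, where 12.5% of all genes were called, with 6.87% higher and 5.63% lower. Inhba missed the threshold (1.40 ± 0.44, adjusted P-value 0.0576, edgeR). Inhba passed it with the likelihood ratio test (0.0158), without the filter (0.0158), with all 12 samples in one fit (0.0382), and without replicate 2 of SH Sham (1.95, adjusted P-value 0.0303) or replicate 2 of EE + SNA (1.68, adjusted P-value 0.0310). Inhba had met the filter on low counts through its axotomy samples, in which it was high, which limits its tests here as well. Acvr1b (−0.19 ± 0.066), Tgfb2 (−0.41 ± 0.16) and Smad7 (−0.44 ± 0.19) lay below SH Sham in all 3 EE + SNA samples and were not called (adjusted P-value 0.0829, 0.123 and 0.162, edgeR). In all, 7 of the 8 members did not overlap between these groups, against 31.8% of all genes. Acvr1c differed by 2.23 ± 0.33. Of the 81 pathway genes 11 were called higher and 3 lower (17.3%). They included 4 called in no other comparison, Bmpr1a (0.26 ± 0.062, adjusted P-value 0.0179), Acvrl1 (0.49 ± 0.13, 0.0298), Ctgf (0.61 ± 0.18, 0.0479) and Bmp7 (0.44 ± 0.13, 0.0487, edgeR), each of which lost its call without at least 1 of the samples. The call held in 12 of 15 alternatives for Bmpr1a, in 10 for Acvrl1 and in 5 each for Ctgf and Bmp7. Ctgf and Bmp7 lost it with library-size scaling, all 12 samples in one fit, the replicate block and limma on either FPKM scale. Ctgf lost it under DESeq2 too.

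The interaction of housing and surgery was called for no member, for no pathway gene and for no gene of the 16238 (0% called, 2.61% at an unadjusted P-value below 0.05, edgeR). Of the 8 members Inhba alone had an unadjusted P-value below 0.05, and Acvr1c gave −0.47 ± 0.64 with no test, or 0.48 without replicate 3 of EE Sham. Of the pathway genes named here Id1 (−0.56, unadjusted P-value 0.0089), Mstn (1.07, 0.0366) and Ctgf (0.82, 0.0482) did so too (edgeR), which with Inhba makes 4 of the 7 pathway genes below this threshold. A change called in 1 housing is therefore not shown to differ from that in the other.

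Across the 12 samples, the genes whose log2 CPM followed that of Acvr1c most closely, of 15343 compared, were Gpr137b (Pearson's r 0.975), Emp3 (0.973), Abhd5 (0.971), Stac (0.968) and Rab31 (0.967). Each was higher after axotomy, by 0.30 to 0.62 in SH and 0.23 to 0.55 in EE on the log2 scale. The samples fall into sham and axotomy, which sets much of such an r, and they share libraries. Of the members compared, Smad1 came nearest to Acvr1c (r 0.928, place 101), before Tgfbr2 (0.836), Tgfb1 (0.663) and Inhbb (0.279). Acvr1b (−0.776), Smad7 (−0.711) and Tgfb2 (−0.532) went against it. Inhba and Gdf15, below a mean of 1 CPM, were not compared.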

How the data were processed

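Poly(A) RNA of 12 pools of sciatic DRG was sequenced in paired ends. The authors aligned the reads to mm10 with TopHat2 2.0.12 and Bowtie2 2.2.3, and deposited whole-number counts per gene name made with HTSeq 0.6.0, not normalized. They also deposited FPKM, scaled by gene length and by the fragments of the library. The strand setting is not given in the sources used here. The table holds 44345 gene names and 5 lines of reads left out, which stayed out of library sizes: 46.7% to 47.6% of reads without a gene, 0.314% to 0.370% ambiguous and 8.49% to 9.28% not uniquely aligned.

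TMM scaling was computed on the samples of each fit (R 4.3.3), after low genes were filtered out with filterByExpr (10 counts, total of 15) in edgeR 4.0.16, leaving 16238 genes. Each comparison was fitted on its 6 samples, and the interaction on all 12, with glmQLFit and the two-sided quasi-likelihood F test. FPKM served for comparing levels between genes. Where nothing says that samples are separate cages or litters, P-values measure the spread between these pools. The scripts were tested on simulated data.

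The 10 members and the lists were chosen with earlier results of these data known. Named are all members, Atf3, the pathway genes called in any comparison (1 is not reported here and is left out of the plot of pathway genes, but stays in the counts), and the 5 genes most like Acvr1c with a mean of at least 1 CPM. The others that are named (Smad2, Smad3, Tgfbr1, Acvr2a and Bmpr2) were added as the best known partners after their values were seen.

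Pairing by replicate number was checked by the correlation of deviations from the group means. Same-numbered samples of SH Sham and EE Sham had r of 0.333, 0.132 and 0.125, all over the threshold of 0.1. Differently numbered samples of these groups had r of −0.331 to 0.197, so the numbers are not shown to pair them. In the other comparisons the lowest same-numbered r was −0.229 to 0.0529. For EE + SNA against SH SNA the same-numbered r were 0.0529, 0.117 and 0.123, and differently numbered samples reached 0.0396. Alternatives were library-size scaling, a likelihood ratio test, DESeq2 1.42.0, no filter, a filter of 10 counts in every sample, all 12 samples in one fit, a replicate block, limma 3.58.1 on log2(FPKM + 1) and log2(FPKM + 0.1), and each sample left out.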

Additional observations from a re-analysis of the deposited data

How the results depend on the processing

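The members called after axotomy were 3 in SH and 2 in EE, with 1 to 3 and 1 to 2 when a sample was left out. They were 2, and 4 with no filter on low counts, in EE + SNA against SH Sham (2 to 3 with a sample left out), and 0 in both housing comparisons and the interaction (0 throughout when a sample was left out). With the replicate block 2 members, 11 pathway genes and 1924 genes were called in SH SNA against SH Sham, and 2, 8 and 887 in EE + SNA against EE Sham. The pairing was not borne out there, and both comparisons had same-numbered samples with an r below −0.1. In EE Sham against SH Sham, where the pairing met the threshold of 0.1 but is not established, the block gave 29 genes in place of 1 and 1 pathway gene, Id1, in place of 0. It changed no call of a member other than Inhba in SH.

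Pathway calls in SH SNA against SH Sham were 14, with 9 by DESeq2 and 7 to 14 with a sample left out (7 without replicate 1 of SH Sham or replicate 1 of SH SNA), and calls among all genes 1823, with 1207 (without replicate 1 of SH SNA) to 1683. In EE + SNA against EE Sham they were 9, with 16 without the filter and 6 to 10 with a sample left out. All genes were 785, with 1303 by the likelihood ratio test, 1694 without the filter, 1278 with all 12 samples in one fit, 472 and 462 by limma on log2(FPKM + 1) and log2(FPKM + 0.1), and 361 (without replicate 3 of EE Sham) to 1082 with a sample left out. In EE Sham against SH Sham no filter gave 1 pathway gene (Id1) and 48 genes, the likelihood ratio test 5 genes, and library-size scaling, all 12 samples in one fit and limma on either FPKM scale 0 genes, with 0 to 2 when a sample was left out. In EE + SNA against SH SNA no filter gave 1 pathway gene (Ctgf) and 17 genes and DESeq2 2 genes, with 0 to 7 (7 without replicate 2 of SH SNA). In EE + SNA against SH Sham the pathway genes were 14, 22 without the filter and 10 to 19 with a sample left out, and all genes 2031, with 1168 (without replicate 1 of EE + SNA) to 2021. For the interaction no filter gave 1 pathway gene (Ctgf) and 77 genes, and the likelihood ratio test and DESeq2 1 gene each.

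Values near 0 turned their sign when a sample was left out. These were, in SH SNA against SH Sham, Id1 (−0.021 to 0.19) and Ctgf (−0.27 to 0.15), Inhbb in EE + SNA against EE Sham (−0.23 to 0.12) and against SH Sham (−0.27 to 0.10), in EE Sham against SH Sham Acvr1b (−0.080 to 0.023), Tgfb2 (−0.23 to 0.031) and Smad7 (−0.12 to 0.11), in EE + SNA against SH SNA Acvr1b (−0.080 to 0.00075), Tgfb1 (−0.076 to 0.14), Smad1 (−0.077 to 0.012) and Smad7 (−0.27 to 0.010), and in the interaction Acvr1b (−0.070 to 0.039), Tgfb2 (−0.26 to 0.0037), Tgfbr2 (−0.15 to 0.0083), Smad1 (−0.0022 to 0.087) and Smad7 (−0.28 to 0.0055). None of these was called. Acvr1c, which was not tested, turned its sign in EE Sham against SH Sham (−1.04 to 0.28) and in the interaction (−0.84 to 0.48). Smad7 in EE Sham against SH Sham (0.0044) also turned with library-size scaling (−0.0060), no filter (−0.0054), the replicate block (−0.0014) and limma on log2(FPKM + 1) (−0.0063) and log2(FPKM + 0.1) (−0.011). On the log2(FPKM + 1) scale, which understates low genes, Acvr1c differed by 0.28 in SH and 0.19 in EE. The cause of the other differences was not tested. Depth limits Gdf15, Acvr1c and Inhba, the members with the fewest reads.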
